A study of Mus musculus with 24 samples.

Results

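Immediate early genes are transcribed within minutes of a stimulus, from factors already present in the cell, and most of them encode transcription factors. The 10 genes described here were taken from the deposited count table by their gene names, out of 55434 genes in all. They are Fos and Fosb, Jun, Junb and Jund, which encode subunits of AP-1, the zinc finger factors Egr1 and Egr2, the nuclear receptor gene Nr4a1, the stress-induced factor gene Atf3, and Zfp36, which encodes an RNA-binding protein. All 10 passed the filter on low counts in every fit. They were followed over 24 libraries of CD11b-selected mouse brain cells in 8 groups of 3, labelled as microglia.

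Adult MRL/lpr microglia came from 16-week-old untreated mice and were set against microglia of untreated MRL/MpJ mice of the same age. The lpr allele is a mutation of Fas, the gene of a death receptor, and MRL/lpr mice, which are homozygous for it, model lupus. MRL/MpJ is the strain of the same background with wild-type Fas. The other 18 libraries hold microglia of neonatal MRL/lpr mice, so the unstimulated controls carry lpr as well. These cells were kept in serum-containing medium for 48 h and then exposed for 6 h to a mixture of cytokines, TNFa (tumour necrosis factor alpha), IFNg (interferon gamma), IFNa (interferon alpha) or IL-6 (interleukin 6), or left unstimulated. The mixture is labelled as all of the cytokines, and doses are not in the labels. Brains of every group were digested with enzymes and the cells were picked with magnetic beads. There is thus no library of undigested tissue here, and a response of these genes to digestion cannot be told apart from a difference that was present in the brain. The adult groups address how microglia differ in lupus-prone mice, and the cultures address what the cytokines do to such cells.

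AP-1 is a dimer of a Jun protein with a Fos, Jun or ATF protein, and its make-up sets which genes it activates or restrains. In macrophages and microglia these factors act with NF-kappaB on cytokine genes, while Atf3, Nr4a1 and Zfp36 are known mainly as brakes, the last by speeding the decay of AU-rich mRNAs such as that of Tnf. Immediate early genes are also known to be induced in microglia while brain tissue is being dissociated. Their mRNAs are short-lived, so a library shows the state of the cells at lysis.

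The total per library was 10.08 to 19.32 M reads assigned to genes. Levels are CPM, a gene's count relative to the size of its library, with TMM scaling over all 24 libraries, and are given in replicate order. Microglial markers checked the labels. The 9 markers summed to 24402 to 25688 CPM in adult MRL/lpr and 42125 to 46062 CPM in adult MRL/MpJ libraries, and 7 of the 9 were lower in MRL/lpr. In the cultures the sums were 3411 to 5898 CPM, with the defining markers Tmem119 and P2ry12 far below their adult levels. Tmem119 averaged 22.0 ± 8.46 CPM with TNFa and 6.75 ± 1.11 CPM in unstimulated cultures, against 7210.0 ± 296 CPM in adult MRL/MpJ cells (SD, n = 3). P2ry12 averaged 53.4 ± 9.17 CPM with the mixture, 54.2 ± 8.86 CPM with IFNa, 6.45 ± 2.29 CPM with TNFa and 22.4 ± 5.31 CPM unstimulated, against 7264 ± 374 CPM in adult MRL/MpJ cells. Fas was too low in both adult strains to check the strain labels, at 0.784 ± 0.581 CPM in MRL/lpr and 0.470 ± 0.254 CPM in MRL/MpJ. Calls are from edgeR's quasi-likelihood test at an adjusted p under 0.05, and "rose" and "fell" are used only of called genes. In such bulk RNA, fewer cells of a type and less RNA per cell cannot be told apart.

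Promoter sequences are shown for 7 of the members that the results turn on, to let their control regions be read beside the values. Each line gives the 150 bases before the RefSeq start on GRCm38.p6, 5′ to 3′ on the gene's own strand, with motif matches in capitals. Fos lies at chr12:85473740-85473889, plus strand. Fosb lies at chr7:19310046-19310195, minus strand. Jun lies at chr4:95052223-95052372, minus strand, and Junb at chr8:84978749-84978898, minus strand. Nr4a1 lies at chr15:101266696-101266845, plus strand. Atf3 lies at chr1:191183334-191183483, minus strand, and Zfp36 at chr7:28379229-28379378, minus strand.
Fos: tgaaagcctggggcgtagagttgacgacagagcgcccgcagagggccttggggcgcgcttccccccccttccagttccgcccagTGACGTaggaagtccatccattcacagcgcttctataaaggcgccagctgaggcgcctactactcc
Fosb: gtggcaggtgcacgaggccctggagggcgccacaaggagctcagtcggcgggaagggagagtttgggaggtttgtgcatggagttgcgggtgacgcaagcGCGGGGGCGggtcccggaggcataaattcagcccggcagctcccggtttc
Jun: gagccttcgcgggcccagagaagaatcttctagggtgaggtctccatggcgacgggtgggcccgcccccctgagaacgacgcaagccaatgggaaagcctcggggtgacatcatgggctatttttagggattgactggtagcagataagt
Junb: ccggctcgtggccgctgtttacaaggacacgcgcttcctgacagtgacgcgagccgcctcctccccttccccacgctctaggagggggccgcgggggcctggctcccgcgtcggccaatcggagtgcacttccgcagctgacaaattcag
Nr4a1: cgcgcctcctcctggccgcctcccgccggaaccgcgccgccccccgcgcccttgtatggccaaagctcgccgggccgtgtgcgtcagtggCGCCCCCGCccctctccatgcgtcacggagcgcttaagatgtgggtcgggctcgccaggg
Atf3: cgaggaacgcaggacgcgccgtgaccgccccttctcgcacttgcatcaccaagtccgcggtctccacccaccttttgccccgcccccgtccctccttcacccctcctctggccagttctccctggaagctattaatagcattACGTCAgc
Zfp36: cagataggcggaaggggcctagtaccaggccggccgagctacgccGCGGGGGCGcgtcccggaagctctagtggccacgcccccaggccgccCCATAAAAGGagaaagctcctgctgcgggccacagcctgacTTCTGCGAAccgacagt

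The motifs were searched on both strands over 250 bases before the start in 9 members, and in 32851 RefSeq promoters. The RefSeq start used for Jund lies 1210 bases from its principal start in the GENCODE annotation, so its window may lie outside its main promoter. The letters TGACGT, the core of a cAMP response element, were in 6.47% of all promoters and in those of Fos and Atf3. They lie 66 to 61 bases before the start of Fos and, on the other strand, 8 to 3 bases before that of Atf3. The letters GCGNGGGCG, which EGR proteins bind, were in 4.7% of promoters and in those of Fosb, Nr4a1 and Zfp36. A CArG box, the site of serum response factor, was in 1.47% of promoters, and among the 9 in that of Zfp36 alone, 58 to 49 bases before the start. The letters TTCNNNGAA, a STAT-type element, were in 7.02% of promoters and in that of Zfp36. An NF-kappaB motif was in 7.25% of promoters and in those of Fos and Fosb, further out than the stretches shown, and of Egr2. The AP-1 letters TGANTCA, in 6.75% of promoters, were in none of the 9. No motif overlapped another, apart from the Egr2 match, which reads on both strands at places 1 base apart. A match is a description of the letters only, and a window without one says nothing about the factor.

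Per kilobase of gene length, the 10 members spanned a wide range in every group, and adult and cultured cells ranked them differently. In adult MRL/lpr cells Junb (297 CPM per kb), Jund (291), Jun (239) and Zfp36 (192) led, and Atf3 (22.1) was low. In unstimulated cultures Atf3 led at 134 CPM per kb, above Jund at 96.4, Junb at 64.5 and Jun at 44.5. The cultures with the mixture had Junb at 381 and Atf3 at 280.3 CPM per kb. At the low end, Egr2 was at 1.77 CPM per kb in adult MRL/lpr cells and Fosb at 0.0773 in unstimulated cultures.

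**Figure D1:**
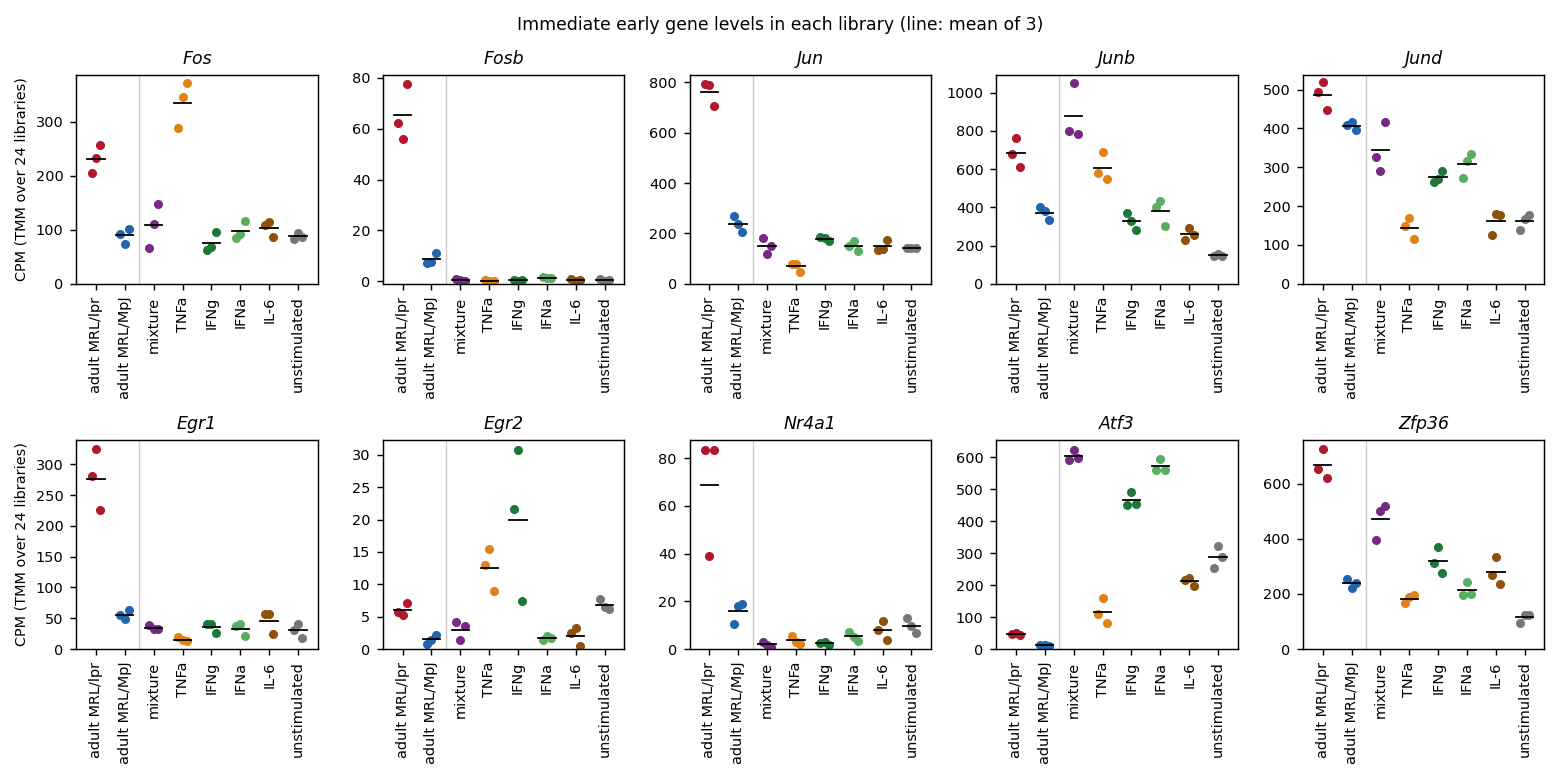
Level of each of the 10 genes in each library, in CPM after TMM scaling over 24 libraries (y axis, its own linear range per gene), by group (x axis, adult groups left of the line, cultures right of it). Points are libraries and lines are means of 3. Fosb, Jun, Egr1 and Nr4a1 were highest in adult MRL/lpr cells, Fos was highest with TNFa, Junb with the mixture (with plain library totals, in adult MRL/lpr), and Atf3 was lowest in both adult groups.

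All 10 members were higher in adult MRL/lpr than in adult MRL/MpJ microglia, and in each the 3 MRL/lpr libraries lay above the 3 MRL/MpJ libraries. The share of all genes whose libraries parted in this way was not counted, so this separation is a description only. Of 13799 genes tested, 24.1% rose and 21.6% fell. The median log2 fold change of the members was 1.91, against 0.01 over all genes tested. The differences ran from 7.92-fold for Fosb to 1.25-fold for Jund.

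Among the Fos genes, Fosb was at 62.3, 56.0 and 77.4 CPM in MRL/lpr and at 7.202, 7.43 and 11.1 CPM in MRL/MpJ cells (log2 fold change 2.98 ± 0.19, edgeR adjusted p = 5.30e-07). It encodes a Fos protein whose mRNA is usually scarce in resting cells. Fos was at 205, 233 and 258 CPM in MRL/lpr, against 92.5, 73.8 and 102 CPM in MRL/MpJ (log2 fold change 1.44 ± 0.13, edgeR adjusted p = 7.98e-06). The ratio of Fosb to Fos per length was 0.106 ± 0.0135 in MRL/lpr and 0.0362 ± 0.00613 in MRL/MpJ (SD, n = 3), with no overlap between the strains.

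The Jun genes rose unequally. Jun, the founding AP-1 subunit, was at 794, 789 and 705 CPM in MRL/lpr and 271, 237 and 208 CPM in MRL/MpJ cells (log2 fold change 1.74 ± 0.12, edgeR adjusted p = 7.33e-07). Junb, which can oppose Jun at some promoters, was at 678, 765 and 609 CPM in MRL/lpr, against 400.1, 381 and 336 CPM in MRL/MpJ (log2 fold change 0.94 ± 0.11, edgeR adjusted p = 5.63e-05). Jund, the most evenly expressed of the family, differed least, with 492, 518 and 446 CPM in MRL/lpr and 408, 415 and 397 CPM in MRL/MpJ (log2 fold change 0.32 ± 0.10, edgeR adjusted p = 0.0172). Its call was lost without MRL/MpJ replicate 3 (adjusted p = 0.0710) and in a fit of all 24 libraries (adjusted p = 0.245).

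The EGR and NR4A members, which in other cells report recent growth factor or calcium signals, rose together. Egr1 was at 280.5, 324 and 225 CPM in MRL/lpr and 55.5, 48.0 and 63.1 CPM in MRL/MpJ (log2 fold change 2.38 ± 0.15, edgeR adjusted p = 4.36e-07). Egr2 was scarce, at 5.73, 5.21 and 7.15 CPM in MRL/lpr against 0.847, 1.44 and 2.16 CPM in MRL/MpJ (log2 fold change 2.08 ± 0.39, edgeR adjusted p = 0.00104). Nr4a1 had 83.6, 39.0 and 83.5 CPM in MRL/lpr and 10.4, 17.97 and 19.0 CPM in MRL/MpJ (log2 fold change 2.19 ± 0.34, edgeR adjusted p = 0.00117), and MRL/lpr replicate 2 stood below the other two. The genes with a braking role moved the same way. Atf3 was at 48.0, 49.1 and 45.4 CPM in MRL/lpr and 12.5, 12.5 and 9.63 CPM in MRL/MpJ (log2 fold change 2.11 ± 0.14, edgeR adjusted p = 7.91e-07). Zfp36 was at 654, 728 and 621 CPM in MRL/lpr, against 254, 220.5 and 239.7 CPM in MRL/MpJ (log2 fold change 1.55 ± 0.10, edgeR adjusted p = 7.33e-07).

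The other genes of the pathway are read against the same 24.1% and 21.6% of all genes. Of 17 other immediate early genes tested, 4 rose and 3 fell, shares near those of all genes, with a median log2 fold change of 0.16. Gadd45b, a stress-response gene, rose by 3.15 ± 0.43 on the log2 scale and Ier3, a survival gene, by 1.67 ± 0.21. Of 7 relatives of the EGR, NR4A and Zfp36 genes, Egr3 rose (1.85 ± 0.34) and 0 fell. Of 7 other AP-1 family genes, Atf7 rose (0.35 ± 0.13) and 0 fell. Of 15 upstream kinases and factors, 2 rose and 4 fell, with Elk4, a partner of serum response factor, at 0.71 ± 0.13 and Mapk3, which encodes ERK1, at -0.59 ± 0.10.

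Signs of RNA handling and of other cells moved with the strains as well. The nuclear RNA Malat1 was at 984 ± 173 CPM in MRL/lpr and 119 ± 48.8 CPM in MRL/MpJ (SD, n = 3), and Neat1 at 60.5 ± 13.2 CPM in MRL/lpr and 4.56 ± 1.25 CPM in MRL/MpJ. Gm42418, a gene that overlaps ribosomal RNA repeats, was at 1551 ± 245 CPM in MRL/lpr and 9844 ± 5663 CPM in MRL/MpJ. The heat shock genes Hspa1a (3.17 ± 0.71) and Hspa1b (3.26 ± 0.76) rose, while 1 of 9 heat shock genes fell, and their sum was 761 to 1194 CPM in MRL/lpr and 909 to 944 CPM in MRL/MpJ. Of NK cell markers 5 of 7 rose, with sums of 43.5 to 54.4 CPM in MRL/lpr and 7.33 to 19.3 CPM in MRL/MpJ and 1 of the 7 at 0 in MRL/MpJ. Of monocyte markers 3 of 6 rose, with sums of 57.4 to 180.3 CPM in MRL/lpr and 55.8 to 76.6 CPM in MRL/MpJ. Of T cell markers 3 of 8 rose, with sums of 9.58 to 13.31 CPM in MRL/lpr and 7.67 to 12.1 CPM in MRL/MpJ. Border macrophage markers fell in 6 of 8, and neutrophil markers rose in 0 and fell in 1 of 8. Oligodendrocyte markers fell in 3 of 6, with sums of 127 to 206 CPM in MRL/lpr and 203 to 277 CPM in MRL/MpJ. Of 4 B or plasma cell markers tested 1 rose and 1 fell, with sums of 27.5 to 81.3 CPM in MRL/lpr and 28.6 to 39.1 CPM in MRL/MpJ, and of 4 neuron markers tested 1 rose. The part of any of these in the difference of the 10 members was not tested.

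In culture no cytokine group had calls for all 10 genes, and calls went in both directions with all but IL-6. The estimated spread between libraries of a group was wider here (edgeR coefficient of variation 0.397, against 0.181 in the adult fit). Fewer calls than in the adult cells therefore do not show by themselves that the genes moved less. With TNFa, 3 members rose and 2 fell, where 4.38% of 14626 genes rose and 3.72% fell. The members' median log2 fold change was -0.57, against -0.02 over all genes. Fos was at 288, 346 and 372 CPM with TNFa and 83.5, 94.2 and 86.8 CPM unstimulated, a rise of 3.75-fold (log2 fold change 1.91 ± 0.25, edgeR adjusted p = 7.75e-05). The TNFa cultures held the highest Fos level of the 8 groups, above the adult MRL/lpr cells, with no overlap. Junb was at 577, 689 and 549 CPM with TNFa, against 147, 154 and 143 CPM unstimulated (log2 fold change 2.01 ± 0.18, edgeR adjusted p = 1.69e-06). Jun went the other way, with 79.6, 79.2 and 47.7 CPM with TNFa and 142, 142 and 141 CPM unstimulated (log2 fold change -1.07 ± 0.19, edgeR adjusted p = 0.00148). Atf3 fell too, with 109, 158 and 82.4 CPM with TNFa, against 252, 323 and 289 CPM unstimulated (log2 fold change -1.32 ± 0.18, edgeR adjusted p = 1.39e-04).

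The remaining calls with TNFa were less firm. Zfp36 was at 166, 188 and 196 CPM with TNFa and 96.1, 126 and 123 CPM unstimulated (log2 fold change 0.65 ± 0.18, edgeR adjusted p = 0.0285), and its call was lost without unstimulated replicate 1 or 2 or TNFa replicate 2 or 3 (adjusted p = 0.0533 to 0.135). Egr1 (log2 fold change -1.01 ± 0.33, edgeR adjusted p = 0.0851) and Nr4a1 (log2 fold change -1.45 ± 0.48, edgeR adjusted p = 0.0804) did not pass. With the replicate number as a block both were lower (adjusted p = 0.00113 for Egr1 and 0.00114 for Nr4a1), which made 3 members higher and 4 lower. The block fit called 2542 genes in both directions together, and the shares of all genes given above are not those of that fit. Egr1 passed also without unstimulated replicate 3 (adjusted p = 0.0322), and Nr4a1 without TNFa replicate 1 (adjusted p = 0.0436). Egr2 was at 13, 15.4 and 8.92 CPM with TNFa, above its 7.68, 6.51 and 6.202 CPM unstimulated in every library (with plain library totals the groups overlapped), and the difference missed the threshold (log2 fold change 0.85 ± 0.57, edgeR adjusted p = 0.503). The level of Egr1 per length was 0.962 ± 0.230 times that of Egr2 with TNFa, against 3.38 ± 1.33 times unstimulated (SD, n = 3).

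**Figure D2:**
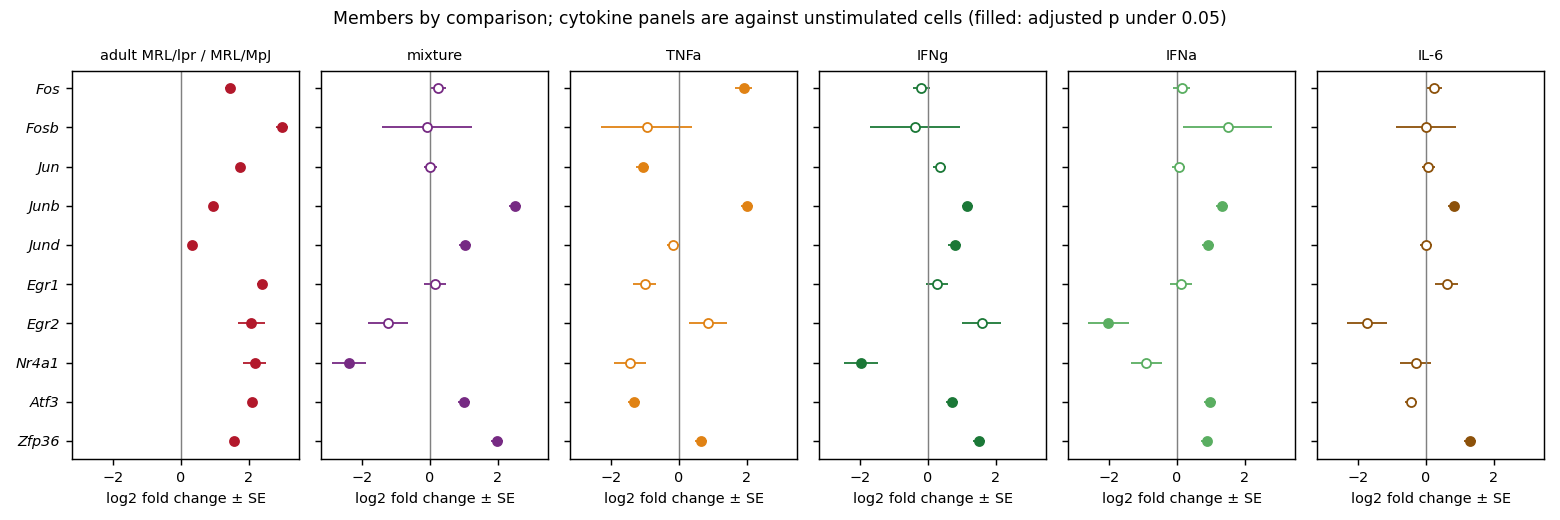
Log2 fold change ± SE of each gene (x axis) in adult MRL/lpr against MRL/MpJ cells and in each cytokine group against unstimulated cultures, 3 libraries a group. Filled points have an edgeR adjusted p under 0.05. All 10 points of the adult panel are filled and right of 0, while filled points stand on both sides of 0 with TNFa, IFNg, IFNa and the mixture.

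Junb, Jund, Atf3 and Zfp36 rose with IFNg and with IFNa. With IFNg 8.57% of genes rose and 4.32% fell, and 4 members rose and 1 fell. With IFNa 9.41% rose and 5.07% fell, and 4 members rose and 1 fell. The groups share the unstimulated libraries, so the lists are not independent. The members' median log2 fold change was 0.54 with IFNg, against -0.02 over all genes, and 0.51 with IFNa, against -0.04.

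Zfp36 was at 312, 370.5 and 276 CPM with IFNg, against 96.1, 126 and 123 CPM unstimulated (log2 fold change 1.50 ± 0.18, edgeR adjusted p = 3.25e-05). With IFNa it was at 195, 245 and 201 CPM (log2 fold change 0.88 ± 0.18, edgeR adjusted p = 0.00254). Both interferon groups lay above the unstimulated libraries without overlap. Junb was at 371, 328 and 279 CPM with IFNg (log2 fold change 1.17 ± 0.17, edgeR adjusted p = 2.26e-04) and at 400.0, 435 and 301 CPM with IFNa (log2 fold change 1.33 ± 0.17, edgeR adjusted p = 6.74e-05). Jund was at 261, 271 and 289.8 CPM with IFNg and 274, 317 and 333 CPM with IFNa, against 139, 166 and 178 CPM unstimulated. Its log2 fold changes were 0.79 ± 0.18 with IFNg (edgeR adjusted p = 0.00801) and 0.92 ± 0.18 with IFNa (edgeR adjusted p = 0.00242), while with TNFa it was -0.18 ± 0.18 (edgeR adjusted p = 0.744). The difference between these groups was not tested.

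Atf3 had 451, 492 and 454 CPM with IFNg, 558, 593 and 561 CPM with IFNa and 252, 323 and 289 CPM unstimulated. Both interferon groups stood above the unstimulated libraries, and the TNFa group stood below them. Its change was log2 fold change 0.97 ± 0.18, edgeR adjusted p = 0.00137 with IFNa, and log2 fold change 0.72 ± 0.18, edgeR adjusted p = 0.0127 with IFNg. The IFNg call was lost without unstimulated replicate 1 (adjusted p = 0.0693), without IFNg replicate 2 (adjusted p = 0.0545) and with library totals used for scaling (adjusted p = 0.0534). Nr4a1 fell with IFNg, with 2.51, 3.05 and 1.70 CPM against 13.1, 9.73 and 6.59 CPM unstimulated (log2 fold change -1.97 ± 0.49, edgeR adjusted p = 0.0124). That call was lost without unstimulated replicate 1 (adjusted p = 0.0532) or IFNg replicate 3 (adjusted p = 0.0644). With IFNa Nr4a1 was at 7.09, 5.20 and 3.59 CPM (log2 fold change -0.89 ± 0.47, edgeR adjusted p = 0.269), and fell with the replicate number as a block (adjusted p = 0.0254).

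Egr2 lay on opposite sides of the unstimulated level with the interferons. It was at 21.6, 30.8 and 7.44 CPM with IFNg, 1.36, 2.05 and 1.64 CPM with IFNa and 7.68, 6.51 and 6.202 CPM unstimulated. All IFNa libraries lay under the unstimulated ones, while IFNg replicates 1 and 2 lay above them and replicate 3 within them. The difference with IFNg missed the threshold (log2 fold change 1.59 ± 0.57, edgeR adjusted p = 0.0882), passed with the replicate number as a block (adjusted p = 0.0425), and passed without IFNg replicate 3 (adjusted p = 0.0324). With IFNa Egr2 fell (log2 fold change -2.02 ± 0.60, edgeR adjusted p = 0.0335), but the call was lost when any 1 of the 6 libraries was left out (adjusted p = 0.0610 to 0.122). The difference between IFNg and IFNa was not tested. Fosb in these groups rested on few reads, with 7, 0 and 10 counts with IFNg, 28, 18 and 16 with IFNa and 13, 1 and 9 unstimulated. The count of 0 allows up to 0.203 CPM (3 counts, counting error only). Fosb had 0 counts also in IL-6 replicate 2 and TNFa replicate 3, which allows up to 0.283 and 0.164 CPM there.

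IL-6 moved the fewest members, and the fewest genes, with 0.745% rising and 0.232% falling. Of the members 2 rose and 0 fell, and the median log2 fold change was 0.05, against 0.00 over all genes. Zfp36 was at 270.2, 334 and 237 CPM with IL-6, against 96.1, 126 and 123 CPM unstimulated (log2 fold change 1.30 ± 0.18, edgeR adjusted p = 0.00113). This is the gene whose promoter, printed above, holds both the STAT-type letters and the CArG box, and whether they are used was not tested. Junb was at 231, 291 and 258 CPM with IL-6 (log2 fold change 0.82 ± 0.17, edgeR adjusted p = 0.0298), above the unstimulated libraries throughout. Its call was lost on leaving out any of 5 of the 6 libraries, all but IL-6 replicate 1 (adjusted p = 0.0793 to 0.135).

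With the mixture 4 members rose and 1 fell, where 15.7% of genes rose and 16.4% fell. The members' median log2 fold change was 0.19, against -0.05 over all genes. Junb was at 797, 1049.6 and 783 CPM with the mixture, against 147, 154 and 143 CPM unstimulated (log2 fold change 2.51 ± 0.18, edgeR adjusted p = 5.74e-08), a 5.71-fold rise. Zfp36 was at 394, 501 and 518 CPM with the mixture and 96.1, 126 and 123 CPM unstimulated (log2 fold change 1.98 ± 0.18, edgeR adjusted p = 6.15e-07). Jund had 327, 290.1 and 415 CPM with the mixture (log2 fold change 1.04 ± 0.18, edgeR adjusted p = 3.55e-04) and Atf3 592, 623 and 596 CPM (log2 fold change 1.01 ± 0.18, edgeR adjusted p = 3.66e-04). The mixture is set against the same unstimulated libraries as the single cytokines. Nr4a1 fell to 2.93, 1.89 and 0.962 CPM with the mixture, against 13.1, 9.73 and 6.59 CPM unstimulated (log2 fold change -2.39 ± 0.50, edgeR adjusted p = 0.00146).

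Fos and Jun, which moved with TNFa, did not pass with the mixture. Fos was at 65.8, 110.3 and 148 CPM with the mixture, a spread that took in the unstimulated libraries (log2 fold change 0.24 ± 0.24, edgeR adjusted p = 0.527). Jun was at 179.9, 118 and 148 CPM (log2 fold change 0.01 ± 0.19, edgeR adjusted p = 0.976) and Egr1 at 38.5, 33.1 and 32.4 CPM (log2 fold change 0.14 ± 0.33, edgeR adjusted p = 0.827). Egr2 was at 4.11, 1.36 and 3.55 CPM, under every unstimulated library, and missed the threshold (log2 fold change -1.23 ± 0.58, edgeR adjusted p = 0.128), though it passed when libraries were scaled by their totals (adjusted p = 0.0386). A p that misses the threshold does not show that these genes stayed the same.

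The direct comparison of the mixture with TNFa called more members than those with the other cytokines did. In it 6 members were higher and 2 lower with the mixture, where 12.6% of genes were higher and 12.6% lower. Fos was 3.18-fold lower with the mixture than with TNFa (log2 fold change -1.67 ± 0.24, edgeR adjusted p = 9.50e-05). Egr2 was lower as well (log2 fold change -2.08 ± 0.59, edgeR adjusted p = 0.0157), a call lost without TNFa replicate 2 (adjusted p = 0.0546) or mixture replicate 2 (adjusted p = 0.0776). Atf3 was 5.05-fold higher (log2 fold change 2.34 ± 0.19, edgeR adjusted p = 4.40e-07), and Zfp36 (1.33 ± 0.18), Jund (1.22 ± 0.18) and Jun (1.08 ± 0.19) were higher too. Junb was higher by 0.50 ± 0.17 (adjusted p = 0.0394), a call lost without TNFa replicate 1 or 3 or mixture replicate 2 (adjusted p = 0.123 to 0.131) and with total counts (adjusted p = 0.557). The Junb call was lost also with no filter (edgeR adjusted p = 0.0716) and in a fit of the groups compared only (edgeR adjusted p = 0.0982). Egr1 was higher by 1.15 ± 0.34 (adjusted p = 0.0185), a call lost without mixture replicate 1 or TNFa replicate 2 or 3 (adjusted p = 0.0541 to 0.0721) and with total counts (adjusted p = 0.117). The Egr1 call was lost with no filter too (edgeR adjusted p = 0.0502). With the replicate number as a block Nr4a1 was also lower (adjusted p = 0.0200).

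Against the other cytokines the mixture differed in fewer members, and Junb was higher in each comparison. Against IFNg, 6.45% of genes were higher and 7.83% lower. Of the members 1 was higher and 1 lower, Junb at 1.35 ± 0.17 and Egr2 at -2.82 ± 0.61, and with the block Zfp36 was higher as well (0.48, adjusted p = 0.00426). Without mixture replicate 1, Zfp36 (adjusted p = 0.0175) and Fos (adjusted p = 0.0206) were higher too. Against IFNa, 4.16% of genes were higher and 3.78% lower. Of the members 2 were higher and 0 lower, Junb at 1.18 ± 0.17 and Zfp36 at 1.105 ± 0.18, and with the block Nr4a1 was lower (-1.54, adjusted p = 0.00186). Against IL-6, 13.8% of genes were higher and 14% lower. Of the members 4 were higher and 1 lower, led by Junb (1.69 ± 0.17) and Atf3 (1.45 ± 0.18), with Nr4a1 lower (-2.09 ± 0.50). Zfp36 was higher than with IL-6 (0.68 ± 0.18), and lost its call with total counts (adjusted p = 0.107).

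The make-up of Jun family mRNA shifted with the stimulus. Junb made up 59.9 ± 7.64% of Jun, Junb and Jund reads per length with the mixture, 71.0 ± 2.75% with TNFa and 31.5 ± 2.07% unstimulated (SD, n = 3). Jun made up 5.77 ± 1.099% with TNFa, against 21.7 ± 1.33% unstimulated. In adult cells all 3 shares parted without overlap. Jund made up 35.2 ± 0.309% in MRL/lpr and 50.8 ± 2.20% in MRL/MpJ. The share of Jun was 28.9 ± 1.01% in MRL/lpr and 15.5 ± 1.21% in MRL/MpJ, while that of Junb was 35.9 ± 1.26% in MRL/lpr and 33.6 ± 1.04% in MRL/MpJ. These shares do not depend on the scaling between libraries. They compare mRNA and not protein.

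**Figure D3:**
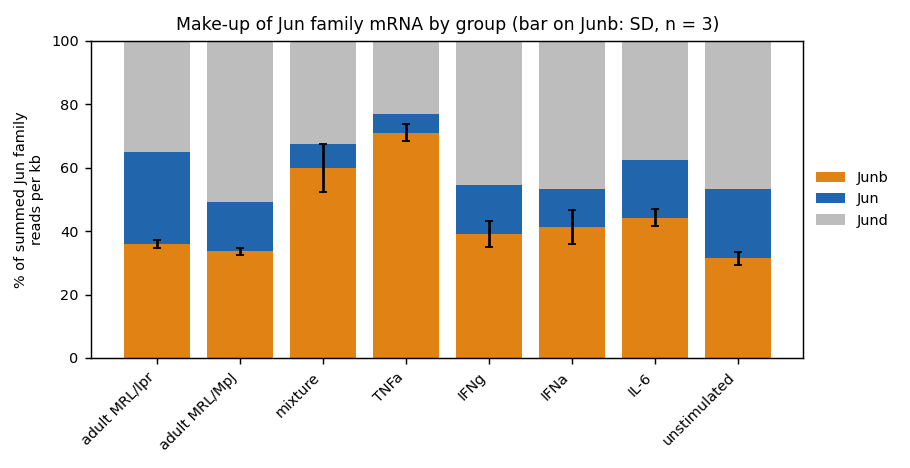
Share of Junb, Jun and Jund in their summed reads per kb (y axis, %) in each group (x axis), as means of 3 libraries with the SD of Junb as a bar. Junb held 71.0% with TNFa and 59.9% with the mixture, against 31.5% unstimulated, and Jun held 28.9% in adult MRL/lpr, against 15.5% in adult MRL/MpJ.

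The other genes of the pathway are read against the 15.7% of all genes that rose and the 16.4% that fell with the mixture, and the smaller lists give no more than their counts. Of 18 other immediate early genes 10 rose and 2 fell, with a median log2 fold change of 0.86. Csrnp1 (2.83 ± 0.19) and Gadd45b (2.41 ± 0.42) rose most. Of 8 other AP-1 family genes 3 rose and 0 fell, with Batf2, an interferon-induced member, at 5.67 ± 0.66 and Jdp2, which encodes an AP-1 repressor, at 1.98 ± 0.37. The EGR corepressor genes Nab1 (1.88 ± 0.16) and Nab2 (1.02 ± 0.29) rose among 7 relatives tested, of which 1 fell. Of 15 upstream kinases and factors 3 rose and 1 fell, with Crem (2.87 ± 0.34), a cAMP-responsive factor gene, and the kinase gene Map2k1 (1.45 ± 0.16) at the top. Heat shock genes rose in 3 and fell in 2 of 9. Dnajb1, a co-chaperone gene, rose by 1.64 ± 0.15 and Hspa1b by 2.56 ± 0.88.

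The same lists were counted with the single cytokines, whose shares of all genes are given above. Among 18 other immediate early genes, 3 rose and 2 fell with TNFa, 5 rose and 3 fell with IFNg, 6 rose and 0 fell with IFNa, and 2 rose and 0 fell with IL-6. Csrnp1 rose with TNFa (0.78 ± 0.19), IFNg (2.12 ± 0.19), IFNa (1.33 ± 0.19) and IL-6 (1.26 ± 0.19). Of the 8 other AP-1 family genes, 2 rose with TNFa, led by Jdp2 (2.51 ± 0.37), 4 with IFNg and 1 with IFNa, both led by Batf2 (5.04 ± 0.64 with IFNg and 3.31 ± 0.61 with IFNa), and 0 with IL-6, and 0 fell in any of them. Nab1 rose with TNFa (1.17 ± 0.16), IFNg (1.09 ± 0.16) and IFNa (1.09 ± 0.16). Monocyte markers, an index of other CD11b cells, rose in 2 of 6 with the mixture and IFNa, 1 with TNFa and IFNg and 0 with IL-6. Their sums were 127 to 254 CPM with the mixture, 136 to 258 with TNFa, 159 to 180.3 with IFNg, 116 to 142 with IFNa, 22.2 to 42.0 with IL-6 and 33.0 to 47.4 unstimulated. Endothelial markers rose in 2 of 6 with the mixture and IFNa and 1 with IFNg, with sums of 162 to 228 CPM with the mixture, 178 to 218 with IFNa, 55.6 to 94.3 with IFNg and 22.8 to 53.4 unstimulated. The 1 NK cell marker tested rose with the mixture, IFNg and IFNa, where the 7 listed summed to 55.3 to 142, 32.7 to 89.9 and 45.2 to 66.1 CPM, against 0.973 to 5.36 CPM unstimulated. Of these 7, 3 had 0 reads with the mixture, 4 with IFNg, 5 with IFNa and 3 unstimulated. Whether these markers stand for such cells in the cultures was not tested, nor was the part of such cells in the members' changes.

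Scaling bears on all of these counts, since with plain library totals for scaling the median gene shifted by 0.26 in the adult comparison and by -0.41 with the mixture (log2). The adult split of all genes was then 4783 genes higher and 1439 lower, against 3328 and 2982 with TMM. With the mixture it was 1547 genes higher and 4993 lower, against 2289 and 2398. It was 996 genes higher and 1211 lower with IFNg and 1190 genes higher and 1560 lower with IFNa, with shifts of -0.18 and -0.17. For the mixture against TNFa it was 1332 genes higher and 4184 lower, against IFNg 735 genes higher and 2769 lower (1141 and 886 with RLE size factors), against IFNa 448 genes higher and 1939 lower and against IL-6 1401 genes higher and 4628 lower. No called member changed sign under any alternative run. Under total counts the adult members still counted 10 higher and 0 lower.

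Adult MRL/lpr cells, for which the labels give no culture, were set beside unstimulated neonatal cells of the same strain to place the levels on 1 scale. Age, culture and preparation differ together here and cannot be told apart. Of 15859 genes, 29.2% were higher and 25.8% lower in the adult cells, and of the members 8 were higher and 1 lower. Fosb differed most, with 62.3, 56.0 and 77.4 CPM in adult MRL/lpr and 0.884, 0.0608 and 0.503 CPM in unstimulated neonatal cells (log2 fold change 7.08 ± 0.89, edgeR adjusted p = 1.34e-06). The fold rests on 23 reads in the neonatal group, and was 7.79 on the log2 scale without unstimulated replicate 1. Egr1 (3.19 ± 0.33), Nr4a1 (2.81 ± 0.45), Zfp36 (2.54 ± 0.16), Jun (2.43 ± 0.18), Junb (2.20 ± 0.16), Jund (1.59 ± 0.16) and Fos (1.39 ± 0.22) were higher as well.

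Atf3 was the exception. It was 6.06-fold lower in adult MRL/lpr than in unstimulated neonatal cells (log2 fold change -2.60 ± 0.17, edgeR adjusted p = 6.80e-11), at 48.0, 49.1 and 45.4 CPM against 252, 323 and 289 CPM, with no overlap. Among the 8 groups Atf3 fell into an order with few overlaps: the mixture and IFNa overlapped at the top, and IFNg, unstimulated, IL-6, TNFa, adult MRL/lpr and adult MRL/MpJ followed without overlap between neighbours. With plain library totals IFNa stood alone at the top, and the mixture and IFNg overlapped below it. Egr2 overlapped between the groups and missed the threshold (log2 fold change -0.17 ± 0.53, edgeR adjusted p = 0.798). The level of Egr1 per length was 36.0 ± 11.7 times that of Egr2 in adult MRL/lpr, against 3.38 ± 1.33 times in unstimulated cultures. It was 32.4 ± 15.1 times in adult MRL/MpJ, so the adult strains were alike in this. In other cultures it was 25.8 ± 18.7 times with IL-6, 15.4 ± 5.53 with IFNa, 10.8 ± 6.61 with the mixture and 1.69 ± 0.839 with IFNg.

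In the order of the 8 groups, Fos in the TNFa cultures and then in adult MRL/lpr cells stood apart, and the other 6 groups overlapped with their neighbours. Fosb was in the order adult MRL/lpr, adult MRL/MpJ and IFNa without overlap, with the other cultures overlapping below. For Jun both adult groups stood above the cultures and TNFa below them. For Junb the mixture stood alone at the top and unstimulated cells alone at the bottom, while adult MRL/lpr cells and the TNFa cultures overlapped. With plain library totals adult MRL/lpr cells led instead, at 742 to 906 CPM, overlapping the mixture at 558 to 841 CPM, which overlapped TNFa. Jund, Egr1 and Nr4a1 were highest in adult MRL/lpr cells without overlap, and below these most neighbours overlapped. Zfp36 was highest in adult MRL/lpr cells, then with the mixture, each without overlap (with plain library totals the mixture overlapped IFNg), and lowest unstimulated.

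The strain difference in adult cells and the mixture's effect in culture were then compared gene by gene, as the difference of the log2 fold changes in 1 fit of 24 libraries. Over all genes 15.9% of differences were positive and 18.5% negative at the threshold, and of the members 6 were positive and 2 negative. Nr4a1 (4.46 ± 0.65, edgeR adjusted p = 2.22e-05), Egr2 (3.19 ± 0.79, adjusted p = 0.00327), Egr1 (2.12 ± 0.44), Jun (1.61 ± 0.25), Fos (1.08 ± 0.31) and Atf3 (0.98 ± 0.23) had a more positive log2 fold change by strain than with the mixture. The difference is of signed changes. Nr4a1 rose in the adult comparison (2.19 ± 0.34) and fell with the mixture (-2.39 ± 0.50), and for Egr2 the values were 2.08 ± 0.39 by strain and -1.23 ± 0.58 with the mixture. Junb (-1.69 ± 0.22, edgeR adjusted p = 4.94e-06) and Jund (-0.84 ± 0.22, adjusted p = 0.00559) had a more positive one with the mixture.

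For Fosb (log2 fold change 2.97 ± 1.18, edgeR adjusted p = 0.0574) and Zfp36 (log2 fold change -0.55 ± 0.21, edgeR adjusted p = 0.0517) the difference did not pass. Fosb passed without mixture replicate 1 (adjusted p = 0.0474), without unstimulated replicate 2 (adjusted p = 0.0226) and with total counts (adjusted p = 0.0178). It passed also with DESeq2 (adjusted p = 0.0249). Zfp36 passed with DESeq2 (adjusted p = 0.0331) and with limma-voom (adjusted p = 0.0456). In edgeR Zfp36 passed with a filter of 1 CPM in 3 libraries (adjusted p = 0.0442) and without MRL/lpr replicate 2 (adjusted p = 0.0458). With total counts the median gene shifted by 0.79 in this comparison, the split was 5650 genes higher and 1046 lower, against 2529 and 2933 with TMM, and Jund was at -0.05 (adjusted p = 0.888). No adult cells here were exposed to cytokines, so the contrast compares signed changes in cells that differ in age and culture.

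**Figure D4:**
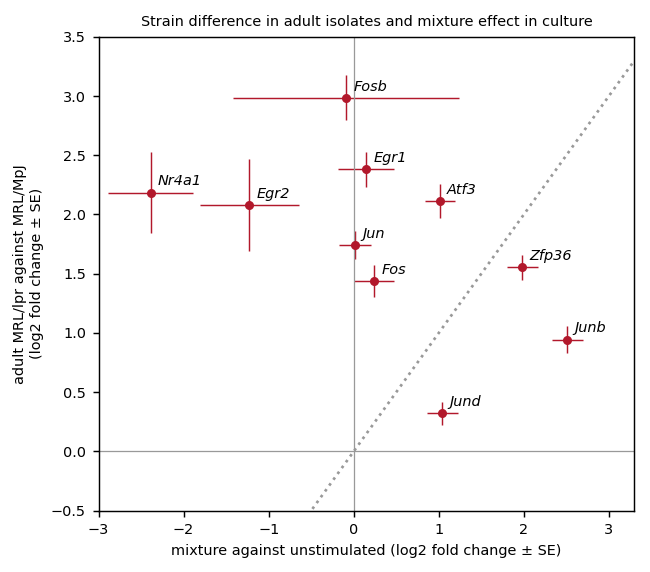
Log2 fold change ± SE of each gene with the mixture against unstimulated cultures (x axis) and in adult MRL/lpr against adult MRL/MpJ cells (y axis), 3 libraries a group. The dotted line marks equal changes. Junb, Jund and Zfp36 lie right of it, and Nr4a1 and Egr2 lie left of 0 on the x axis and above 2 on the y axis. Fosb lies there too, at -0.09 on the x axis with a wide error.

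Over the 18 neonatal libraries, which share 3 replicate numbers and 6 groups, members formed a few loose pairs on the log2 CPM scale. Jund and Atf3 went together (Pearson r = 0.89 over 18 libraries and 0.91 over the 15 without TNFa), and so did Junb and Zfp36 (r = 0.66 and 0.85). Jun went with Atf3 (r = 0.75) and Egr1 (r = 0.69) over 18 libraries, but at 0.13 and 0.05 over the 15 without TNFa. Fos and Jun went opposite ways (r = -0.93 and -0.69). Nr4a1 ran against Junb (r = -0.67 and -0.70) and Zfp36 (r = -0.64 and -0.72). Fos ran against Atf3 (r = -0.71 and -0.02) and Egr1 (r = -0.69 and -0.04), in both cases only with the TNFa libraries included. These are descriptions, and differences between the group means are part of each r.

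Genes outside the set with the most similar pattern were found by the highest r over the same 18 libraries, among genes whose log2 CPM averaged 3 or more. Junb was closest to Tank (0.96) and Rrad (0.95), and Zfp36 to Stx12 (0.96) and C1qb (0.94). Atf3 was closest to Lmo2 (0.95) and Sall1 (0.95), and Jund to Abcb10 (0.94) and Dbnl (0.94). Fos was closest to Sqstm1 (0.91) and Cpd (0.91), which fell to 0.58 and 0.51 over the 15 libraries without TNFa. Jun was closest to Pkib (0.90) and Eva1a (0.88), at 0.56 and 0.67 without TNFa. Nr4a1 was closest to Sox4 (0.90) and Klhl7 (0.90), and Egr1 to Npl (0.88) and Rbm12 (0.83). The partners of Egr2, Lpcat1 (0.84) and Rit1 (0.81), and of Fosb, Id3 (0.81) and Acss2 (0.80), were looser.

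Replicate numbers left a mark on some members. Egr1 and Nr4a1 were lowest in replicate 3 in 6 of 6 neonatal groups, and Atf3 was highest in replicate 2 in 6 of 6. Fos was lowest in replicate 1 in 5 of 6, and Junb was highest in replicate 2 in 5 of 6. What the replicate numbers mark is not in the labels. The share of all genes with such patterns was not counted, so they are not particular to these members. Astrocyte markers summed to 56.4 to 415 CPM with the mixture and 36.2 to 332 CPM unstimulated, a spread within groups whose part was not tested.

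Of the 10 genes 5 overlap a gene on the other strand in the mm10 annotation and 0 overlap one on their own strand. Without the strand setting of the counting, reads of such pairs cannot be told apart with certainty. Junb overlaps Prdx2, which was at 216 ± 28.3 CPM with the mixture and 191 ± 18.4 CPM unstimulated, and at 47.8 ± 10.7 CPM in adult MRL/lpr and 86.2 ± 5.82 CPM in adult MRL/MpJ (SD, n = 3). Jun overlaps Junos, at 1.52 ± 0.303 CPM in adult MRL/lpr and 0.141 ± 0.245 CPM in adult MRL/MpJ, far below Jun. The partners of Jund, Zfp36 and Atf3, all predicted genes, averaged at most 5.59 CPM.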

How the data were processed

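RNA of 24 libraries, 3 in each of 8 groups taken from the labels, was made with a column kit and a directional library kit, per the labels' protocols. The tools named are cutadapt 2.1 and STAR 2.7.1a, and the build is mm10, per the submitters' processing notes. For the counting program, its strand setting and the annotation nothing is stated (not given in the sources used here). The deposited table holds raw read counts per gene, without normalization, and, per the file headers, each gene's length in bases.

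Tests used edgeR 4.0.16 under R 4.3.3, with genes kept by filterByExpr, scaling by TMM and the quasi-likelihood F test in its robust form, and Benjamini-Hochberg adjustment ran over all genes tested. The 6 adult libraries (13799 genes, 4 residual degrees of freedom), the 18 neonatal ones (14626 genes, 12 degrees of freedom) and all 24 (15859 genes, 16 degrees of freedom) were fitted separately, the last for the comparisons across ages. Each standard error was taken as |log2 fold change| over the root of its F value. For log2 CPM, 0.5 was added to each CPM value. The steps were tested on simulated data. Whether replicates are separate animals or cultures is not stated, so p-values measure only the spread between these libraries, which may be technical. No pair of libraries of the same group was identical within counting error, and pairs across groups were not checked.

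Replicate numbers are shared between groups. Same-numbered neonatal libraries deviated together from their group means in 45 of 45 pairs (correlation 0.217 to 0.702), so the number was also fitted as a block. In adults 2 of 3 pairs were over 0.1, and the numbers were not read as pairs.

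The members and gene lists were chosen with earlier results of these data known. The rule for names takes all 10 members, up to 2 called genes with the largest change from each other list in each comparison, the 2 most similar genes per member, and Malat1, Neat1 and Gm42418. Single marker genes, Fas and the overlapping genes were named after their values were seen. Of the listed symbols, 3 older aliases are in the table under newer names. Alternatives were DESeq2 1.42.0, limma-voom (limma 3.58.1), RLE size factors, total counts, a filter of 1 CPM in 3 libraries or none at all, other sets of libraries in the fit, the block, and each library left out in turn. Promoters are RefSeq's on GRCm38.p6, matched by symbol, and that of Egr1 was not used here.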

Additional observations from a re-analysis of the deposited data

How the results depend on the processing

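Of 1793 values of members under alternatives, 0 called ones changed sign and 65 called in neither fit did. Among these values, 40 lost and 30 gained a call. Lost calls are given by gene above or as counts of members below. Counts of genes called moved by over 1.5 times as follows. With the replicate block they were 3468 for IFNg, 714 for IL-6, 3712 for IFNa and 2542 for TNFa, each against unstimulated, and 3844 and 2689 for the mixture against IFNg and IFNa. The block changed no calls of members other than those given. DESeq2 gave 373 for IL-6 and 1750 for the mixture against IFNa. Total counts gave 3504 and 2387 for the mixture against IFNg and IFNa. A fit of all 24 libraries gave 231 for IL-6, and one of the groups compared only gave 85 for IL-6 and 423 for the mixture against IFNa. Without 1 library, counts were 1240 to 1522 for IFNg, 53 to 94 for IL-6, 1333 to 1887 and 681 to 1115 for the mixture against IFNg and IFNa. Members lower were 0 for IFNa with limma-voom or no filter and 2 with the block, 4 for TNFa with DESeq2 or the block, 2 for the mixture with total counts, 1 for the mixture against IFNa with DESeq2, total counts or the block, and 1 for the strain difference minus the mixture with total counts or no filter. Members higher for the mixture against IFNg were 2 with DESeq2, RLE size factors, the block or all 24 libraries. Without 1 library, members lower were 0 to 1 for IFNg, 0 to 0 for IFNa and 1 to 2 for the mixture against TNFa, and members higher were 1 to 2 for IL-6 and 1 to 3 for the mixture against IFNg. The cause of these moves was not tested. The block was not fitted where adult and neonatal libraries are compared. With 3 libraries a group, low genes such as Fosb in culture have wide errors, and depth limits what can be seen of them.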
